A study of Mus musculus with 2 samples.

Results

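The cells described here are excitatory neurons of the mouse cerebral cortex at embryonic day (E) 16.5 that hold *Zbtb20* transcripts. They were selected on measured values: a barcode was counted as a member when it had 1500 to 60000 unique molecular identifiers (UMIs), under 10% mitochondrial UMIs, at least 2 UMIs of *Zbtb20*, at least 2 UMIs of *Neurod6* or *Neurod2*, and 0 UMIs of *Slc1a3*, *Pax6*, *Eomes*, *Gad1*, *Gad2*, *Mki67* and *Top2a*. The rule found 630 cells in replicate 1 and 982 in replicate 2, which is 1612 of the 16213 barcodes that passed the filter on depth and mitochondrial share. The zeros take out most progenitors and GABAergic cells. No test below bears on these 10 genes.

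The study profiled single embryonic cortical cells to ask which signals pass between migrating interneurons and cortical progenitors. Both libraries come from E16.5 cerebral cortex of WT embryos, the controls of an Eomes-Cre line (EomesDot), and form 1 group with no mutant or treated arm. The labels do not say whether these embryos carried the Cre, and *Eomes*, which names the line, is among the genes required at 0. The matrices list 9049 barcodes and 46398156 UMIs in replicate 1, and 13556 and 64324236 in replicate 2. Of the barcodes that passed, 21 had the same sequence in both libraries, and none of these was a member. All comparisons lie between cell groups of the same 2 libraries, and the libraries are not stated to come from separate litters. With library as a block in the fit, a p-value rests on how unevenly the cell groups differ in these 2 libraries. It does not measure a spread between litters.

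*Zbtb20* encodes a zinc finger repressor of the BTB family that is required for the identity of hippocampal pyramidal neurons and acts in cortical progenitors, in astrocyte formation and in the allotment of cortical layers. *Prox1*, a homeobox gene, marks granule neurons of the dentate gyrus, and *Nrp2* encodes a semaphorin receptor that guides hippocampal and other limbic axons. *Neurod6* and *Neurod2* encode bHLH factors of differentiating pallial glutamatergic neurons. *Bcl11b* and *Tbr1* mark subcerebral and corticothalamic neurons, although *Bcl11b* is also made by hippocampal neurons.

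A hippocampal name for these cells was checked against the markers *Zbtb20*, *Prox1*, *Nrp2* and *Neurod6*, and the markers did not bear it out for the members as a whole. *Prox1* (ENSMUSG00000010175, chr1:190118035-190170827, GRCm38) had a UMI in 9 members of each library, which is 1.43% (95% interval 0.655 to 2.69%) and 0.916% (95% interval 0.420 to 1.73%) by the exact Clopper-Pearson method, and at least 2 UMIs in 2 and 4 members. Intervals for shares of cells cover counting error only. *Nrp2* (ENSMUSG00000025969, chr1:62703317-62818692) had a UMI in 26.03% and 24.8%. *Neurod6* had at least 2 UMIs in 88.3% and 86.5% of members, a value that the rule largely sets. The 8 genes of a dentate granule list, of which *C1ql2* was at 0, summed to 188 and 199 CPM (counts per 1000000 UMIs) in the members, most of it *Sema5a* at 145 and 140.2 CPM, and to 30.2 and 31.4 CPM in neurons without a *Zbtb20* UMI. The 11 genes of an Ammon's horn pyramidal list, of which *Rgs14* was at 0, summed to 309 and 298 CPM in the members and 364 and 365 CPM in those neurons. Most of both sums was *Pou3f1*, at 207 and 212 CPM in the members and 228 and 239 CPM in those neurons. In the first comparison below, 6 of the 11 genes had too few counts to be tested. With most members lacking a UMI of *Prox1* and of *Nrp2*, the cells are called *Zbtb20*-positive neurons here, and no further type is assigned.

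Members made up 42.2% of the neurons of replicate 1 and 39.2% of those of replicate 2, or 40.7% ± 2.14 (SD, n = 2), where neurons are the 1492 and 2505 barcodes that met the rule without its *Zbtb20* condition. The share depends on the threshold and on depth. It was 30.2% ± 3.46 (SD, n = 2) when 3 UMIs were required and 14.3% ± 0.911 (SD, n = 2) when each cell was thinned to 1500 UMIs before the rule. Of the remaining neurons, 251 and 408 held 1 *Zbtb20* UMI, and 611 and 1115 held 0 and are called *Zbtb20*-zero neurons. At a median of 6259 and 5421 UMIs per cell, a count of 0 does not show that a cell lacked the transcript.

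*Zbtb20* (ENSMUSG00000022708, chr16:42875689-43634392) had a median of 4 UMIs per member in both libraries. The range was 2 to 115 in replicate 1 and 2 to 73 in replicate 2. Just inside the threshold, 143 and 287 members had exactly 2 UMIs, at a summed level of 268 and 348 CPM. Just outside it, the neurons with 1 UMI had 143 and 172 CPM. At the upper end 117 and 114 members had at least 10 UMIs, so the members form a broad range with many cells close to the boundary.

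**Figure D1:**
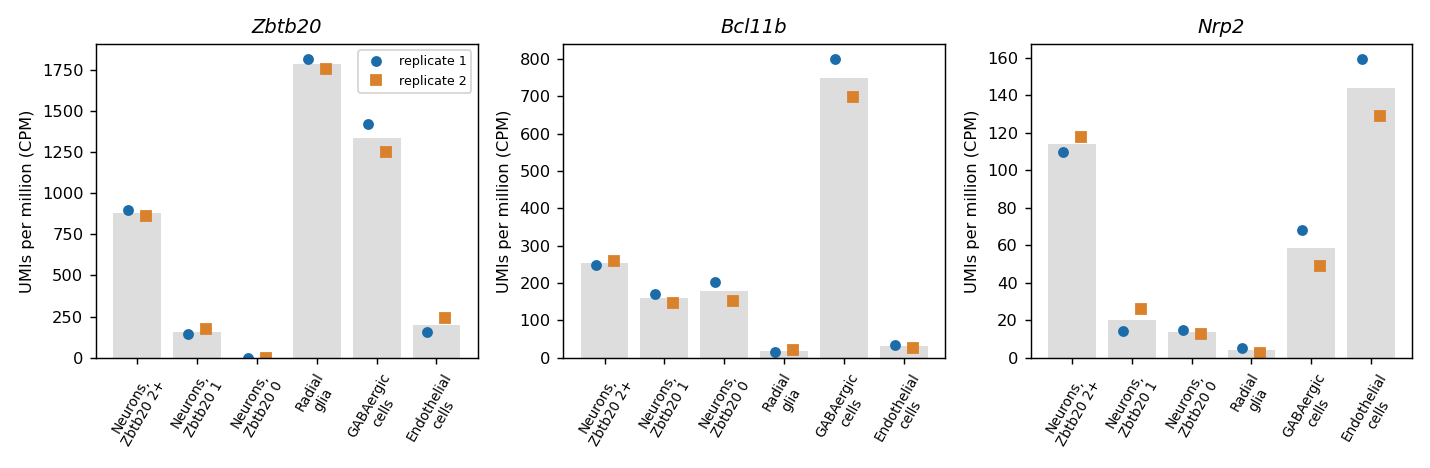
CPM of *Zbtb20*, *Bcl11b* and *Nrp2* (vertical axes, linear from 0) in 6 cell groups, summed over the cells of each library; bars are means of 2 libraries and points the single libraries. *Zbtb20* was at 895 and 859 CPM in the members and at 1815 and 1757 CPM in radial glia, and was not restricted to neurons.

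*Zbtb20* transcripts were found well beyond these neurons. Summed over the group, members had 895 and 859 CPM in replicates 1 and 2. Radial glia, chosen by *Slc1a3* and *Pax6* without *Neurod* or *Gad* UMIs, had 1815 and 1757 CPM. GABAergic cells held a *Zbtb20* UMI in 88.2% and 87.6% of barcodes. Radial glia were thus the highest of these groups, and the levels are a description because *Zbtb20* chose the members. Endothelial cells, chosen by *Cldn5*, held a *Zbtb20* UMI in 57.1% and 53.7% of 28 and 82 barcodes at median depths of 9866 and 7051 UMIs, and in 28.6% and 20.7% when thinned to 1500 UMIs. In thinned members the share was 65.4% and 70.2%, at full median depths of 7439.5 and 5768 UMIs. Free RNA and expression by endothelial cells cannot be told apart here.

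The first comparison asked how *Zbtb20*-positive neurons differ from *Zbtb20*-zero neurons of the same libraries in genes that the rule did not use. Among the genes named by the rule, the largest differences were those of *Tfap2d* and *Ebf1*, higher in the members, and of *Dpp10*, lower in the members. Genes of newborn neurons and of the medial pallium were mostly higher, and more genes of neuronal maturation were lower than higher. Of 13734 genes tested with edgeR's quasi-likelihood test on counts summed per library and cell group, with Benjamini-Hochberg adjustment, 1318 were higher in the members (9.6% of all genes tested) and 1360 lower (9.9%). Genes with an adjusted p under 0.05 are called. In 2676 of these 2678 genes both single libraries went the same way. The same libraries made the calls, so this is no separate support. DESeq2 called 1056 genes, all among the 2678, and 1286 were called with every cell thinned to 1500 UMIs. Beside each list below, the number of its calls that DESeq2 and edgeR on thinned cells also made in the same direction is given; some genes had too few counts to be tested in thinned cells, and count as not kept.

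Of the 10 higher genes named by the rule, 4 encode DNA-binding factors and are given first. *Tfap2d* (ENSMUSG00000042596, chr1:19103022-19173948), which encodes an AP-2 family factor, had 97.96 and 85.2 CPM in the members of replicates 1 and 2 and 5.76 and 5.50 CPM in the *Zbtb20*-zero neurons. The log2 fold change was 3.98 ± 0.16 (SE, from the fit) at a Benjamini-Hochberg adjusted p of 2.70e-13 by edgeR. *Ebf1* (ENSMUSG00000057098, chr11:44618100-45008096), a helix-loop-helix factor of neuronal and B cell differentiation, had 65.6 and 49.1 CPM against 2.64 and 4.46 CPM, which is 3.87 ± 0.22 (SE) on the log2 scale, at a Benjamini-Hochberg adjusted p of 3.18e-11 by edgeR. It was the more uneven of these between the libraries. *Zic1*, a zinc finger factor of the dorsal and medial neural tube, had 33.1 and 34.5 CPM against 2.64 and 6.39 CPM, at a log2 fold change of 2.75. *Zhx2*, a zinc finger homeobox gene, was higher by 2.71 on the log2 scale. For each gene whose log2 ratios in the 2 single libraries, with 1 CPM added, lay over 1.5 times apart in fold, both ratios are given, replicate 1 first. They were 4.19 and 3.20 for *Ebf1* and 3.23 and 2.26 for *Zic1*. Within the members *Zic1* was concentrated in sub-cluster 5 (described below), at 201 CPM against 16.0 CPM in the other members.

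A semaphorin and a semaphorin receptor gene came next. *Sema5a* (ENSMUSG00000022231, chr15:32244813-32696341), a transmembrane semaphorin that is also on the dentate granule list, had 145 and 140.2 CPM in the members and 12.5 and 15.02 CPM in the *Zbtb20*-zero neurons, which is 3.32 ± 0.11 (SE) on the log2 scale, at a Benjamini-Hochberg adjusted p of 1.83e-14 by edgeR. *Nrp2* had 109.9 and 118 CPM against 14.9 and 12.6 CPM, which is 3.05 ± 0.14 (SE) on the log2 scale, at a Benjamini-Hochberg adjusted p of 1.95e-12 by edgeR. Both genes, which were named for their fold change, were separated by more than the spread between libraries. A *Nrp2* UMI was found in 26.03% and 24.8% of members and 4.75% and 4.57% of *Zbtb20*-zero neurons, and in 11.3% and 11.7% and 2.13% and 1.26% after thinning. Endothelial cells, which use *Nrp2* in their own right, gave 39.3% and 43.9%, and radial glia 2.98% and 1.98% at median depths of 9825.5 and 7226.5 UMIs. The other genes named by the rule were *Nell1*, *Cdk6*, *Pard3b* and *Tmem176b*, with log2 fold changes of 3.03, 2.74, 2.69 and 2.68. Of these *Cdk6* encodes a cyclin-dependent kinase and *Pard3b* a polarity protein. The single-library log2 ratios of *Tmem176b* were 2.89 and 2.21.

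Among the lower genes named by the rule, *Dpp10* (ENSMUSG00000036815, chr1:123332138-124845815) had the largest fold change. It encodes an auxiliary subunit of Kv4 potassium channels and had 15.96 and 20.2 CPM in the members and 296 and 163 CPM in the *Zbtb20*-zero neurons, which is -3.61 ± 0.20 (SE) on the log2 scale, at a Benjamini-Hochberg adjusted p of 2.01e-11 by edgeR. *Hs3st4* (ENSMUSG00000078591, chr7:123982366-124398989), a heparan sulfate sulfotransferase gene of deep-layer neurons, had 27.3 and 29.7 CPM against 363 and 180.5 CPM and a log2 fold change of -3.18 ± 0.16 (SE). In both genes the *Zbtb20*-zero neurons of replicate 1 were well above those of replicate 2, and the members of both libraries lay below either. *Dync1i1*, a dynein intermediate chain, had the highest level of this set, 86.4 and 82.1 CPM against 580.0 and 514 CPM, at a log2 fold change of -2.72. The kainate receptor gene *Grik3* differed by -2.95, the anion transporter gene *Slc26a7* by -3.26, *Sybu*, which links axonal cargo to kinesin, by -2.90, and *Nin*, which encodes the centrosomal protein ninein, by -2.73. *Gucy1a1*, *Camkv* and *Pdzd2* completed the rule at -2.71, -2.68 and -2.65. Single-library log2 ratios were -4.13 and -2.95 for *Dpp10*, -3.24 and -2.63 for *Slc26a7*, -3.68 and -2.56 for *Hs3st4*, -3.33 and -2.26 for *Grik3* and -2.27 and -2.93 for *Gucy1a1*.

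**Figure D2:**
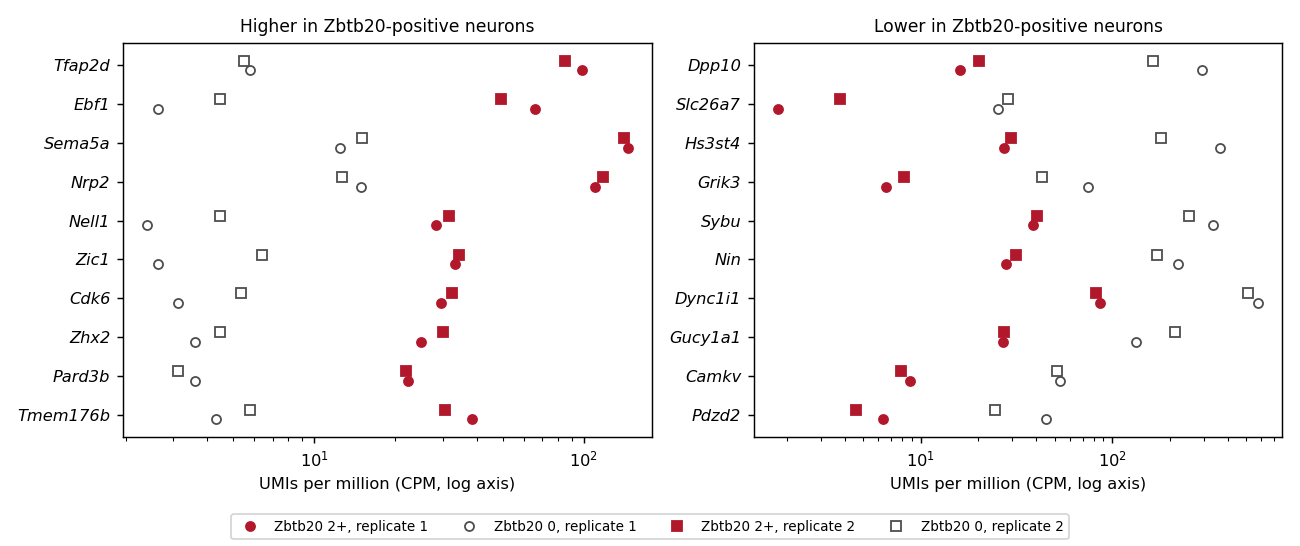
CPM on a log axis of the 10 named genes higher (left) and the 10 lower (right) in *Zbtb20*-positive than in *Zbtb20*-zero neurons, with 1 point per library and group. The 20 genes were chosen by fold change among calls with the same direction in both libraries. That filled and open points do not overlap largely follows from this choice. *Tfap2d* is at 98.0 and 85.2 CPM against 5.76 and 5.50 CPM.

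The next 3 genes, of high level, were chosen after their values had been seen. *Meis2* (ENSMUSG00000027210, chr2:115861264-116067537), a TALE homeobox gene, had 2274 and 2211 CPM in the members and 840.1 and 819 CPM in the *Zbtb20*-zero neurons, at a log2 fold change of 1.41. *Negr1*, a neuronal adhesion molecule of the IgLON family, had 690.5 and 682 CPM against 134 and 113 CPM, at 2.45. *Mef2c* (ENSMUSG00000005583, chr13:83504017-83667079), a factor of maturing neurons, went the other way, with 342 and 386 CPM against 1492 and 1592 CPM and a log2 fold change of -2.11. All of them were separated by far more than the libraries differed.

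Genes of the hippocampus and of the medial pallium did not move as 1 group. Of 6 tested genes of the dentate granule list, 3 were higher in the members and none lower: *Sema5a*, *Calb2* and *Prox1*. DESeq2 kept 1 of the 3 and thinned cells 2. *Calb2* (calretinin, a calcium-binding protein of immature granule cells and of other neurons) had 28.1 and 36.9 CPM against 5.76 and 5.65 CPM, but its adjusted p-value was 0.817 with DESeq2. *Prox1* had 2.19 and 5.58 CPM against 0.720 and 1.19 CPM, which is 1.93 ± 0.61 (SE) on the log2 scale, at a Benjamini-Hochberg adjusted p of 0.031 by edgeR. The adjusted p became 0.271 with DESeq2, at an unchanged log2 fold change of 1.93. With the highest Scrublet scores removed it was 0.200 (edgeR), and the log2 fold change fell to 1.23. *Dock10*, *C1ql3* and *Glis3* were not called, where Benjamini-Hochberg adjusted p by edgeR was 0.35, 0.511 and 0.367. Of 5 tested genes of the Ammon's horn pyramidal list, *Nr3c2* (the mineralocorticoid receptor) was higher by 1.66 on the log2 scale, *Man1a* and *Bok* were lower at -1.33 and -0.83, and *Pou3f1* and *Grik4* were not called. These 3 calls were kept by DESeq2 and in thinned cells. Over the alternatives the log2 fold change of *Nr3c2* ranged from 0.90 to 1.96. *Prox1* had single-library log2 ratios of 0.89 and 1.59.

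Of 10 tested genes of the medial pallium and hippocampal field list, 8 were higher and none lower, with a median log2 fold change of 0.74 against 0.01 over all genes tested, and 7 of the 8 calls were kept by DESeq2 and in thinned cells. *Nr2f2* (ENSMUSG00000030551, chr7:70351946-70366746), the nuclear receptor COUP-TFII, had 105 and 133 CPM in the members and 28.1 and 19.9 CPM in the *Zbtb20*-zero neurons, which is 2.33 ± 0.15 (SE) on the log2 scale, at a Benjamini-Hochberg adjusted p of 3.57e-10 by edgeR. *Emx2*, a homeobox gene needed for hippocampal growth, had 23.9 and 21.5 CPM against 5.04 and 7.43 CPM, at 1.79. *Dmrta2*, a doublesex-type factor of the medial pallium, had 10.8 and 11.2 CPM against 4.56 and 4.91 CPM, at 1.16. *Nr2f1*, *Nfib*, *Nfia* and the LIM homeobox gene *Lhx2* differed by 0.83, 0.66, 0.43 and 0.42. *Lef1*, a Wnt effector, was called by edgeR at 1.31 but not by DESeq2, with an adjusted p-value of 0.287. *Nfix* and *Emx1* were not called, at log2 fold changes of -0.02 and 0.18. *Wnt3a*, the Wnt ligand of the cortical hem, had 0 UMIs in the members. Single-library log2 ratios were 1.87 and 2.68 for *Nr2f2* and 2.05 and 1.42 for *Emx2*. Within the members *Nr2f2* was concentrated in sub-cluster 3 (described below). Over both libraries it had 537 CPM there and 29.6 CPM in the other members, close to the *Zbtb20*-zero neurons. *Nr2f1* had 665 CPM there and 167 CPM in the other members.

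Layer genes went both ways within each list. Of 12 upper-layer genes, 4 were higher in the members and 6 lower, and DESeq2 and thinned cells each kept 4 and 5. *Unc5d* (ENSMUSG00000063626, chr8:28646717-29219671), a netrin receptor of migrating upper-layer neurons, had 2228 and 2109 CPM against 517 and 505 CPM, which is 2.06 ± 0.07 (SE) on the log2 scale, at a Benjamini-Hochberg adjusted p of 5.10e-14 by edgeR. *Cux2* and *Pou3f2*, which encode homeodomain factors of upper-layer neurons, were higher by 0.51 and 0.50. *Inhba*, *Dok5* and *Rorb* were lower, at -2.10, -1.37 and -1.17. The median log2 fold change of the list was -0.34. *Inhba* had single-library log2 ratios of -1.62 and -2.32.

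Of 13 deep-layer genes, 3 were higher and 9 lower, with a median log2 fold change of -0.49. DESeq2 kept 3 and 3 of these calls, and thinned cells 3 and 6. *Bcl11b* had 249 and 260.0 CPM in the members and 202 and 153 CPM in the *Zbtb20*-zero neurons, a log2 fold change of 0.51 ± 0.09 (SE). A *Bcl11b* UMI was found in 62.5% and 58.1% of members and 36.8% and 31.8% of *Zbtb20*-zero neurons, and in 29.7% and 28.5% and 17.7% and 16.1% after thinning, against an unthinned share of 7.14% and 13.4% in endothelial cells, which should lack it. *Tbr1* was higher by 0.54 and *Pcp4*, a calmodulin-binding peptide, by 2.0. *Sox5*, *Ldb2* and *Tle4*, genes of corticofugal and corticothalamic neurons, were lower at -0.86, -1.06 and -1.05, and DESeq2 did not call *Tle4*, at an adjusted p-value of 0.0658. *Fezf2*, the selector of subcerebral neurons, was lower by edgeR at -0.73 and not called by DESeq2 or in thinned cells, with adjusted p-values of 0.0603 and 0.138. Of 6 subplate genes 2 were higher and 2 lower, with 1 and 1 kept by DESeq2 and 0 and 2 in thinned cells, among them *Nr4a2*, a nuclear receptor of subplate neurons, at -1.64. Of 7 Cajal-Retzius genes 3 were higher, 2 of them also with DESeq2 and 3 in thinned cells, and none lower; *Reln*, the secreted guidance protein of those cells, had 32.9 and 45.6 CPM against 11.04 and 8.03 CPM, and the other defining gene, *Trp73*, was not called. A *Reln* UMI was found in 4.92% and 4.89% of members and 5.07% and 3.59% of *Zbtb20*-zero neurons, so the shares of cells differed less than the summed levels. The log2 fold change of *Reln* was 2.07, and 1.17 to 2.38 over the alternatives. Single-library log2 ratios were -1.42 and -0.61 for *Tle4* and 1.49 and 2.37 for *Reln*.

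Newborn neuron genes were mostly higher. Of the 7 genes 6 were higher and none lower, with a median log2 fold change of 2.31, and DESeq2 kept 4 of the 6 calls and thinned cells 5. *Sema3c*, a secreted semaphorin, had 289 and 247 CPM in the members and 58.1 and 48.02 CPM in the *Zbtb20*-zero neurons, a log2 fold change of 2.31 ± 0.08 (SE). *Neurod1*, a bHLH factor of newly born neurons, had 124 and 117 CPM against 27.6 and 24.98 CPM, at 2.17. *Rnd2*, a small GTPase of radial migration, was higher by 2.44 and *Mfap4* by 2.66. *Cntn2* was not called. Of 5 intermediate progenitor genes 4 were higher, also with DESeq2, *Mfng*, *Neurog2*, *Btg2* and *Insm1*, at log2 fold changes of 1.64, 1.19, 1.18 and 0.98; the cells lack *Eomes* UMIs by the rule, and *Btg2* was not called in thinned cells, at an adjusted p-value of 0.0729. *Btg2* had single-library log2 ratios of 0.68 and 1.38.

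Maturation genes went mostly the other way. Of 13 genes, 7 were lower and 2 higher in the members, with a median log2 fold change of -0.75. DESeq2 kept 6 of the lower calls and 1 of the higher, and thinned cells 7 and 1. *Camk2b*, a synaptic kinase subunit, had 34.1 and 41.04 CPM against 152 and 141 CPM, a log2 fold change of -1.98 ± 0.10 (SE). *Syt1*, the calcium sensor of synaptic vesicles, had 239 and 243 CPM against 498 and 454 CPM, at -1.01. *Nefm* and the NMDA receptor subunit gene *Grin2b* were lower, at -1.24 and -0.75. *Rbfox3*, which encodes the neuronal nuclear antigen NeuN, was higher, at 0.55. The other higher call, the synaptic vesicle gene *Syp* at 0.35, was lost with DESeq2, in thinned cells and without the replicate block, at adjusted p-values of 0.548, 0.119 and 0.0507. Of 15 ionotropic glutamate receptor genes 5 were lower and 3 higher, of which DESeq2 kept 3 and 1 and thinned cells 4 and 1, and the higher ones were the kainate receptor gene *Grik2*, at 0.51, and the AMPA receptor genes *Gria1* and *Gria3*, at 0.36 and 0.41. *Grik2* was called under every alternative, whereas DESeq2 did not call *Gria1* or *Gria3*, at adjusted p-values of 0.368 and 0.189, and neither was called in thinned cells.

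**Figure D3:**
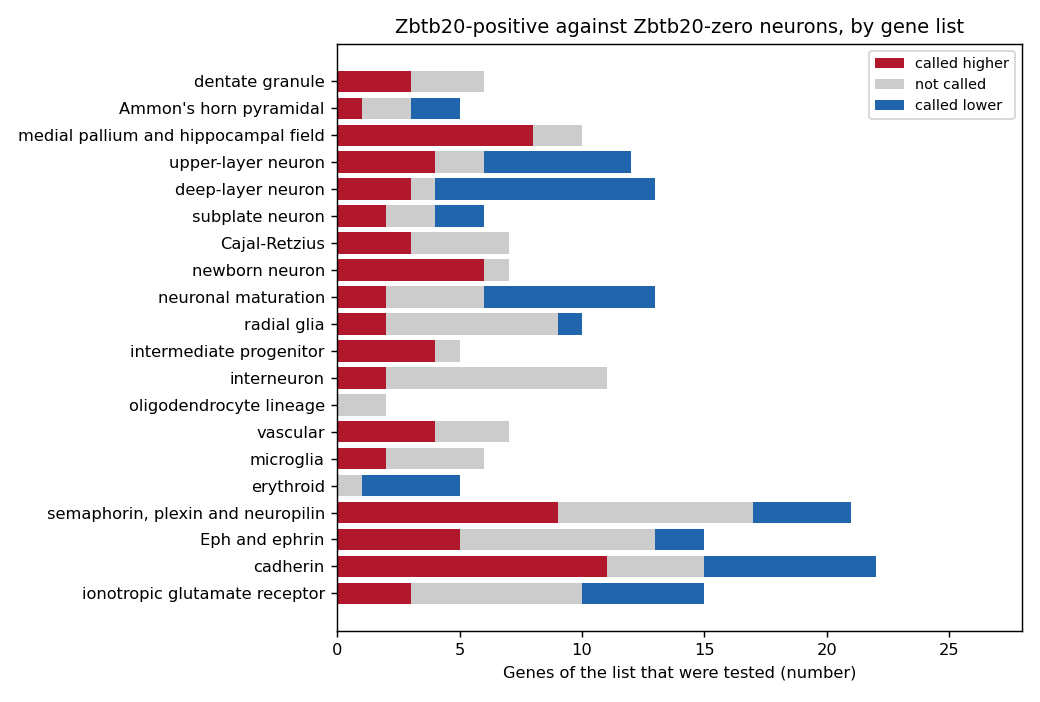
Number of tested genes in each of 20 gene lists (the 4 markers used to check the name are left out) that were called higher, not called or called lower in *Zbtb20*-positive than in *Zbtb20*-zero neurons (edgeR, adjusted p-value under 0.05). Of the newborn neuron list 6 of 7 were higher, and of the neuronal maturation list 7 of 13 were lower.

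Axon guidance and adhesion families were mixed. Of 21 semaphorin, plexin and neuropilin genes 9 were higher and 4 lower in the members, and DESeq2 kept 8 and 0 and thinned cells 8 and 1. *Sema5b* was higher by 1.67, and the neuropilin gene *Nrp1* and the plexin gene *Plxna2* by 0.85 and 0.90. The 4 lower calls, *Plxna1*, *Plxna3*, *Sema3e* and *Sema3f*, were all lost with DESeq2, at adjusted p-values of 0.389, 0.504, 0.212 and 0.257, and *Plxna3* and *Sema3f* also in thinned cells, where *Sema3e* had too few counts to be tested. Of 15 Eph and ephrin genes 5 were higher and 2 lower, and DESeq2 kept 3 and 1 and thinned cells 5 and 1. The Eph receptor gene *Epha5* had 2139 and 1959 CPM against 1156 and 1162 CPM, at 0.79, and *Ephb1* had 117 and 104 CPM against 223 and 154 CPM, at -0.78. Of 22 cadherin and protocadherin genes 11 were higher and 7 lower, and DESeq2 kept 9 and 6 and thinned cells 10 and 5. *Cdh4* (R-cadherin) had 445 and 466 CPM against 149 and 114 CPM, a log2 fold change of 1.79 ± 0.09 (SE), and *Cdh6* was lower, at -1.72. Single-library log2 ratios were -0.29 and -0.88 for *Plxna1* and -2.12 and -1.21 for *Cdh6*.

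Markers of other cells and measures of RNA quality differed between the same groups. Of 7 vascular genes 4 were higher in the members (2 with DESeq2, 1 in thinned cells), and their summed level was 129 and 54.3 CPM against 12.7 and 28.7 CPM in the *Zbtb20*-zero neurons. *Rgs5*, a pericyte gene, had 22.9 and 9.52 CPM against 0.960 and 1.04 CPM, at single-library log2 ratios of 3.61 and 2.37. Of 6 microglia genes 2 were higher (0 with DESeq2 and in thinned cells), with summed levels of 23.5 and 45.5 CPM against 15.8 and 26.2 CPM. Of 11 interneuron genes 2 were higher, with 169 and 148 CPM against 66.7 and 74.8 CPM, of which *Adarb2* alone had 115 and 89.6 CPM in the members. The other call, *Dlx6os1*, was lost with the highest Scrublet scores removed, where its log2 fold change went from 0.92 to 0.35 at an adjusted p-value of 0.417 (edgeR), and with DESeq2, at 0.272, and in thinned cells, at 0.0555. Of 10 radial glia genes 2 were higher and 1 lower, at summed levels of 773 and 879 CPM in the members and 1021 and 1109 CPM in the *Zbtb20*-zero neurons. The lower one, *Ptprz1*, had 386 and 359 CPM against 714 and 691 CPM and was kept by DESeq2 and in thinned cells, while the higher ones, *Sox9* and *Vim*, were lost in thinned cells, at adjusted p-values of 0.268 and 0.138, and *Vim* also with DESeq2 and in cells of 3000 to 10000 UMIs. The 2 tested oligodendrocyte lineage genes were not called. Globin genes were lower in the members, with 4 of 5 erythroid genes called, also with DESeq2 and in thinned cells, and the highest globin share of a barcode was 85.2% among *Zbtb20*-zero neurons. In all 2658 of the 2678 calls remained without cells of 1% globin or more, a limit chosen after seeing the data.

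Median ribosomal protein shares were 11.6% and 11.4% of UMIs in the members and 6.96% and 8.66% in the *Zbtb20*-zero neurons. Median mitochondrial shares were 4.61% and 4.59% against 6.63% and 5.70%. The highest Scrublet doublet scores were held by 7.94% and 7.33% of members and by 1.47% and 2.24% of *Zbtb20*-zero neurons. With these barcodes removed, 2749 genes were called, 2487 of them shared with the 2678. The part of these measures, and of the vascular, microglia and interneuron markers, in single results was not tested further.

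Within the neurons several of these differences were graded with the *Zbtb20* count of the cell. *Meis2* had 840.1 and 819 CPM in replicates 1 and 2 at 0 *Zbtb20* UMIs, 1558 and 1489 CPM at 1 UMI and 2022 and 1920.3 CPM at 2 UMIs. *Unc5d* had 517 and 505 CPM at 0, 1235 and 1339 CPM at 1 and 1696 and 1777 CPM at 2. At 4 to 6 and at 7 or more UMIs *Meis2* had 2385 and 2486 CPM and 2422 and 2117 CPM and *Unc5d* 2424 and 2451 CPM and 2443 and 2139 CPM, so both were lower again in the top bin of replicate 2. For these 2 genes the neurons just outside the rule lay between those with 0 and those with 2 UMIs. This was not general. *Bcl11b* had 202 and 153 CPM at 0 UMIs and 172 and 148 CPM at 1, lower in both libraries, and *Nfia* had 544 and 405 CPM and 538 and 396 CPM. *Nrp2* had 14.9 and 12.6 CPM at 0 UMIs, 14.3 and 26.2 CPM at 1, 68.3 and 55.7 CPM at 2 UMIs and 175 and 224 CPM at 7 or more, and *Negr1* had 447 and 353 CPM and 990.4 and 1026 CPM. *Mef2c* had 1492 and 1592 CPM at 0 UMIs and 201 and 330.0 CPM at 7 or more. Cells with more *Zbtb20* UMIs were also deeper, at a median of 7009 and 5466 UMIs for 2 *Zbtb20* UMIs and 8092.5 and 6576 UMIs for 7 or more. These levels are a description, since *Zbtb20* counts set the bins and depth moves with them.

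**Figure D4:**
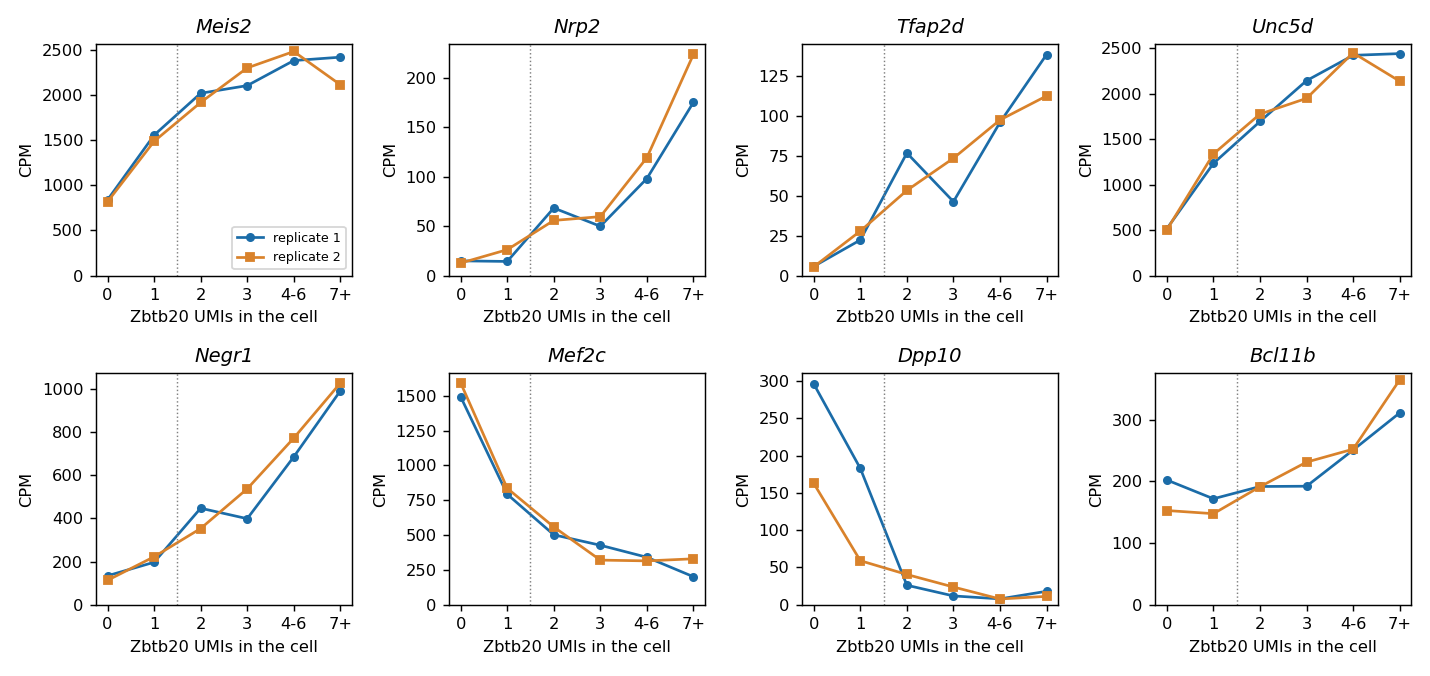
CPM of 8 genes (vertical axes, linear from 0) in neurons by the number of *Zbtb20* UMIs in the cell (horizontal axis), with 1 line per library; the dotted line marks the membership threshold. *Meis2* and *Unc5d* already differed between 0 and 1 UMI, and *Negr1* was highest at 7 or more, with 990.4 and 1026 CPM.

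Clustering of the 1612 members alone gave 6 sub-clusters, each with cells of both libraries. They are described by their leading genes and carry no test, because every gene took part in the clustering. At lower and higher resolution there were 4 and 13 sub-clusters, so the number 6 is a choice.

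Sub-clusters 3 and 5 had the highest *Zbtb20* levels of the 6 in both libraries. Sub-cluster 5 made up 13.0% and 10.1% of members and was led by *Lhfpl3*, *Bmp6*, *Astn2*, *Zic1* and the chemokine receptor gene *Ackr3*. A *Nrp2* UMI was found in 75.6% and 72.7% of its cells. Its *Tfap2d* level was 346 and 286 CPM, its *Ebf1* level 197 and 187 CPM and its *Bcl11b* level 709 and 792 CPM, each the highest of the 6 in both libraries. *Zbtb20* was at 1666 and 1361 CPM. *Nrp1*, the sister receptor of *Nrp2*, went the other way, at 123 and 124 CPM against 547 to 691 CPM in the other sub-clusters. *Lhx2* and *Emx1* were low, at 90.2 and 93.3 CPM and 22.1 and 24.8 CPM. *Cdh20* and *Efna5* were concentrated here, at 58.9 and 62.8 and 342 and 352 CPM.

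Sub-cluster 3 made up 14.8% and 20.4% of members and was led by *Nr2f2*, *Slit3*, *Pde1a*, *Rprm* and *Gabrb1*. *Nr2f2* was at 551 and 529 CPM, and the next highest value in any other sub-cluster was 40.7 CPM. *Nr2f1*, its paralog, was at 728 and 627 CPM. *Zfpm2* and *Crym*, genes of deep-layer neurons, were at 368 and 299 and 61.3 and 56.5 CPM. *Reln* was at 133 and 129 CPM with *Trp73* at 2.67 and 6.46 CPM. Of the 18 members with a *Prox1* UMI, 2 of replicate 1 and 6 of replicate 2 were in this sub-cluster.

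Sub-cluster 1 was the largest, at 28.3% and 29.0%, and was led by *Sparc*, *Ttr*, *Ltbp1*, *Tcf7l2* and *Cdk6*, and *Sparc* and *Ttr* are also abundant in vascular and choroid plexus cells. Its *Unc5d* level was 4233 and 4270.4 CPM, *Rnd2* 241 and 218 CPM, *Neurod1* 181 and 183 CPM and *Syt1* 56.1 and 30.7 CPM. *Cldn5*, an endothelial gene, was at 282 and 35.1 CPM and *Rgs5* at 84.97 and 31.3 CPM, above the other sub-clusters in both libraries, while only 3 and 11 of its cells had a high Scrublet score. Sub-cluster 4, at 16.0% and 13.6%, was led by *Frem2*, *Bmpr1b*, *Lypd6b* and *Fn1*, with *Cux1* at 915 and 911 CPM and *Nrp2* at 5.34 and 3.71 CPM. Its *Nrp2* level was the lowest of the 6 in both libraries.

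Sub-cluster 2, at 19.0% and 17.6%, was led by *Tmtc1*, *Dync1i1*, *Nrxn3* and *Hs6st3* and had the highest *Mef2c*, at 821 and 997 CPM, with *Syt1* at 436 and 472 CPM. Its *Zbtb20* level was low, at 545 and 519 CPM against 547 and 594 CPM in sub-cluster 4, with a median of 3 and 2 UMIs. It also held 23 and 39 of the cells with high Scrublet scores, *Erbb4* among its leading genes, *Dlx6os1* at 32.6 and 37.7 CPM and *C1qa* at 14.2 and 31.9 CPM, genes of interneurons and microglia. Sub-cluster 6, at 8.89% and 9.27%, was led by *Calb2*, *Etv5*, *Sln*, *Id4* and *Fgf1*. *Calb2* was at 121 and 164 CPM there and at 109 and 101 CPM in sub-cluster 5, against at most 35.5 CPM elsewhere. *Nr2f1* was lowest in sub-cluster 6, at 35.1 and 11.04 CPM.

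**Figure D5:**
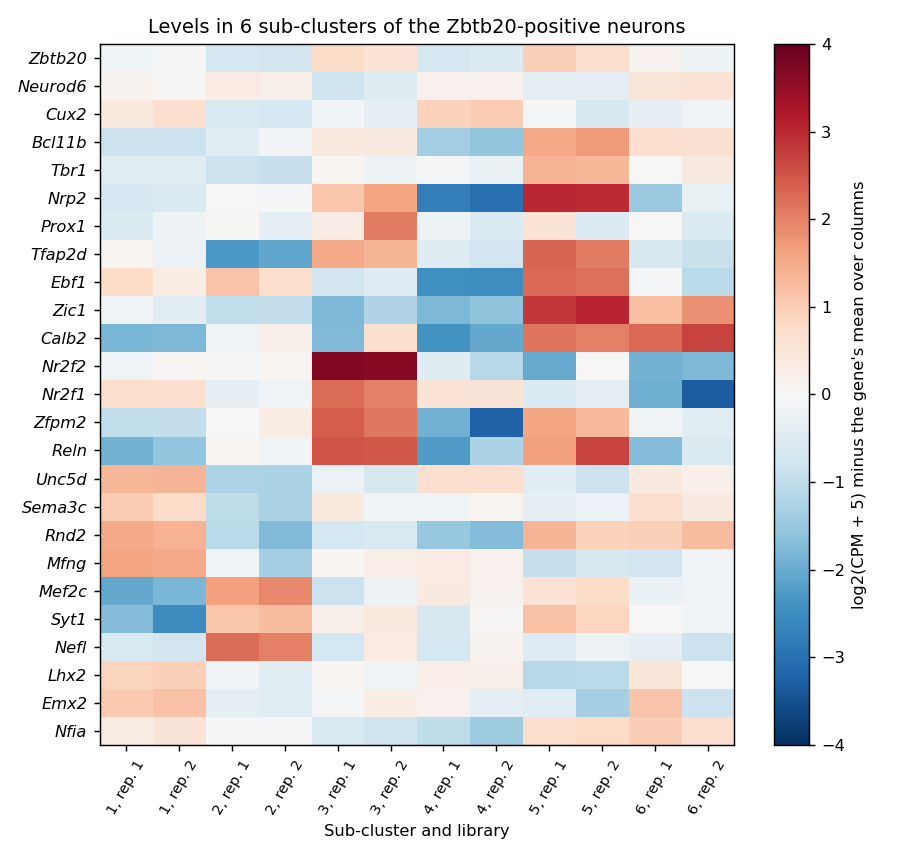
Heat map of 25 genes (rows) in the 6 sub-clusters of each library (columns), coloured by log2(CPM + 5) minus the gene's mean over the 12 columns. Both libraries were clustered together, so likeness between the replicates of a sub-cluster is no separate result. *Nr2f2* is high in sub-cluster 3 and *Nrp2*, *Tfap2d* and *Zic1* in sub-cluster 5.

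The second comparison asked whether members with a *Prox1* UMI differ from those without. Each library had 9 such cells, which are called *Prox1*-positive as a label only. A *Prox1* UMI was found in 1.43% and 0.916% of members, in 0.491% and 0.628% of *Zbtb20*-zero neurons and in 14.9% and 13.4% of GABAergic cells. Endothelial cells gave 1 of 82 in replicate 2, or 1.22% (95% interval 0.0309 to 6.61%), and 0 of 28 in replicate 1 (95% interval 0 to 12.3%). With so few endothelial cells these shares do not settle whether a single UMI marks expression, and none is read from it. Of 12427 genes tested with edgeR, 27 were higher (0.217%) and 41 lower (0.33%) in the *Prox1*-positive members. The count was 6 with DESeq2 (5 higher) and 133 without the library as a block, and with cells thinned to 1500 UMIs edgeR called 0, with 422 genes at an unadjusted p-value under 0.05. With 4 sums the fit has 1 residual degree of freedom, and all genes tested had a median log2 fold change of -0.30.

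*Synpr* (synaptoporin), a synaptic vesicle gene, had 128 and 197 CPM in *Prox1*-positive and 8.32 and 13.6 CPM in other members. That is 3.71 ± 0.60 (SE) on the log2 scale, at a Benjamini-Hochberg adjusted p of 5.48e-07 by edgeR. Each *Prox1*-positive sum held 9 cells, so levels in it can rest on few of them. *Slit3*, a guidance ligand gene, had 758 and 1708 CPM against 107 and 129 CPM, at 3.11 ± 0.26 (SE), and *Zfpm2* had 607 and 1068 CPM against 99.5 and 96.7 CPM, at 2.87 ± 0.27 (SE). *Gabrb1* and *Adamts18* were higher at 2.87 and 2.56. *Slit3*, *Zfpm2* and *Gabrb1* are also leading genes of sub-cluster 3, which held 8 of the 18 cells, but so is *Tafa1*, which went the other way. *Tafa1* had 0 UMIs in the *Prox1*-positive members and 111 and 187 CPM in the others, at least 7.47-fold lower against a floor of 3 counts, and *Spata5* was at least 2.66-fold lower. *Tafa2* was lower at -4.12, and *Ptprt* and *Cntn5* had 2 counts each in the *Prox1*-positive members, for ratios of 11.2 (3.09 to 92.5) and 7.24 (1.999 to 59.8). *Nrp2* was higher, at 1.72 ± 0.31 (SE). Single-library log2 ratios were 2.81 and 3.72 for *Slit3*, 2.60 and 3.45 for *Zfpm2*, 2.35 and 3.001 for *Adamts18*, -4.18 and -3.57 for *Tafa2* and -7.36 and -2.10 for *Ptprt*, which had 0 counts in the *Prox1*-positive members of replicate 1.

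Most of these calls were lost under at least 1 alternative other than thinning. DESeq2 called *Synpr*, *Slit3*, *Zfpm2*, *Gabrb1* and *Tafa2* among the genes named here and did not call *Nrp2*, at an adjusted p-value of 0.810, *Adamts18*, at 0.104, or *Tafa1*, *Spata5*, *Ptprt*, *Cntn5* and *Unc5d*, each at 0.9999. With at least 2 *Prox1* UMIs required, edgeR no longer called *Synpr* or *Gabrb1*, at adjusted p-values of 0.168 and 0.958, nor *Spata5* or *Cntn5*. *Slit3*, *Zfpm2* and *Tafa2* were called under every alternative except thinned cells. Of 12 upper-layer genes 6 were lower and none higher, among them *Unc5d* at -1.63, with 432 and 1347 CPM against 2259.6 and 2117 CPM and single-library log2 ratios of -2.39 and -0.65, but DESeq2 and thinned cells kept none of the 6, and of 4 tested dentate granule genes without *Prox1* none was called. Of 8 tested interneuron genes 2 were higher and none lower, *Dlx6os1* at 2.95 and *Adarb2* at 1.29 on the log2 scale. *Dlx6os1* had 222 and 0 CPM in the *Prox1*-positive members of replicates 1 and 2 and 12.2 and 15.9 CPM in the others, and *Adarb2* had 595 and 0 CPM against 107 and 90.5 CPM, so both rest on replicate 1. The 12 interneuron genes summed to 957 and 65.7 CPM in the *Prox1*-positive members, where 4 of them were at 0, and to 155 and 148 CPM in the others. DESeq2 called neither gene. Their part in the other differences was not tested.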

How the data were processed

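Single cells from dissociated cortex were profiled with the 10x Genomics single-cell 3′ v3.1 kit. The authors deposited 1 matrix of raw UMI counts per gene and barcode for each library, made with Cell Ranger (7.0.0 in the submitters' processing notes, 7.1.0 in the file header) on mm10. Group and library come from the labels; replicate numbers follow accession order. Barcodes with 1500 to 60000 UMIs and under 10% mitochondrial UMIs were kept. Counts were summed per library and cell group, so that cells are not replicates, and tested with edgeR 4.0.16 in R 4.3.3: scaled by TMM, limited to genes that reached 10 counts in 2 or more sums, and fitted by quasi-likelihood with a term for library, which pairs the groups because each library supplies both. The first fit held 8 sums (with the neurons of 1 *Zbtb20* UMI and radial glia), the second 4. P-values were Benjamini-Hochberg adjusted over all genes tested. SE is the log2 fold change divided by the square root of F.

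The members and the 21 gene lists were chosen with earlier results of these data known. Named genes are, by size of fold change among calls, 10 in each direction of the first comparison and 5 in each direction of the second, with at least 20 CPM in both libraries of the higher group and the same direction in both libraries; rule, mitochondrial, ribosomal protein, globin, sex-linked and unnamed gene models were left out. Markers and list members are named besides. CPM is per 1000000 UMIs of the summed group. Members were sub-clustered with scanpy 1.11.5 (1500 variable genes scaled within each library, 20 components, Leiden resolution 0.5). Doublets were not removed by the rule: Scrublet's automatic threshold marked 0 cells in replicate 1, so an alternative removed the highest scores, 0.8% for every 1000 barcodes (432 and 1111 barcodes). The tests were also run on simulated counts without a library effect, and no result above rests on that run. Coordinates are those of RefSeq for GRCm38.p6, where all 251 genes looked up matched. Some genes, and the planned comparisons that rest on them, are not reported here.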

Additional observations from a re-analysis of the deposited data

How the results depend on the processing

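Zbtb20-positive against Zbtb20-zero neurons gave 2678 calls, 1056 with DESeq2 and 1286 in thinned cells; the other 8 alternatives, including the 1 percent globin limit chosen after seeing the data, gave 2179 to 2995. Prox1-positive against Prox1-zero cells within the Zbtb20-positive neurons gave 68 calls, of which 39.7% were higher, and 0 in thinned cells. There were 6 with DESeq2 (83.3% higher), 133 with no replicate block (39.1%) and 42 with the highest Scrublet scores removed (52.4%). Cells of 3000 to 10000 UMIs gave 42 (23.8% higher), and 2 *Prox1* UMIs required gave 104 (12.5%). Without the replicate block the first count was 2179. The share of Zbtb20-positive cells among neurons was 40.7%, 30.2% with 3 UMIs required and 14.3% in thinned cells, and 39.2 to 42.2% with each replicate left out. The sub-clusters of the members numbered 4 and 13 at resolutions 0.25 and 1. Of 1111 gene values under alternatives, 1035 kept direction and call, 71 lost the call, 1 gained it and 4 turned: *Nfix* at 0.0194 with the highest Scrublet scores removed and *Grik4* at 0.0856 with 3 *Zbtb20* UMIs required, neither of them called, and *Adarb2* by *Prox1*, called at 1.29, at -1.13 with DESeq2 and -0.411 with 2 *Prox1* UMIs required. In single libraries, as log2 ratios with 1 CPM added, *Nfix* was -0.0371 without replicate 1 and 0.0645 without replicate 2, *Grik4* 0.201 and -0.335, *Dock10* 0.955 and -0.124, and *C1ql3* 0.635 and -0.0985. By *Prox1*, *Dlx6os1* was -4.08 and 4.08, and *Adarb2* -6.52 and 2.46. Leaving out a library left 1 per group, so counts of calls had no value there. The cause of these changes was not tested.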
